A study of Mus musculus with 24 samples.

Results

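The 9 genes described here mark GABAergic interneurons, the inhibitory neurons of the hippocampus. They were listed by name: Gad1, Gad2, Slc32a1, Pvalb, Vip, Calb2, Reln, Lhx6 and Erbb4. They are 9 of the 55385 gene identifiers in the count files, 44657 of which had at least 1 count in any mouse, and all 9 passed the filter on low counts in every comparison.

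Hippocampal RNA of 24 adult mice was sequenced, in 6 groups of 4 mice. All mice carried Tsc1 alleles flanked by loxP sites (Tsc1f/f), all received tamoxifen for 4 days, and they were males and females of 16 to 22 weeks. Tsc1-Cre- controls had no Camk2a-CreERT2 transgene and were taken on day 8 after the first tamoxifen injection. Tsc1-Cre+ mice carried that transgene, so that tamoxifen removed Tsc1, and were taken on day 4, 6, 8 or 13 without other treatment. Tsc1-Cre+-Rap 4 mice had the same genotype, received 10 mg/kg rapamycin, an inhibitor of the kinase mTOR, from day 4, and were taken on day 13. The transgene is driven by Camk2a regulatory sequence, which is active in excitatory principal neurons, so interneurons are expected to keep Tsc1 in all groups and each value below comes from whole tissue that holds both kinds of cell. All controls were taken on day 8, so effects of the deletion and of time since the first injection cannot be told apart in the comparisons of days 4, 6 and 13 and of rapamycin mice with controls.

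GABAergic interneurons make GABA from glutamate with the 2 glutamate decarboxylases encoded by Gad1 and Gad2, and load it into synaptic vesicles with the transporter encoded by Slc32a1. They fall into classes that are told apart by calcium-binding proteins and peptides, among them parvalbumin (Pvalb), vasoactive intestinal peptide (Vip) and calretinin (Calb2). Lhx6 is a transcription factor of interneurons that arise in the medial ganglionic eminence, Erbb4 is a neuregulin receptor found mainly on interneurons in this tissue, and Reln encodes reelin, a secreted protein of some interneurons and of Cajal-Retzius cells. Loss of inhibition is a long-standing theme in epilepsy, and the comparisons asked how these transcripts stood before, at and after seizure onset and under rapamycin.

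Tsc1, the targeted gene, was measured first, in CPM, the count relative to the TMM-scaled total of the library. Control mice A to D had 109, 103, 106 and 103 CPM, and Tsc1-Cre+ mice had 77.3, 79.0, 81.7 and 75.5 CPM on day 4, 73.6, 73.9, 69.7 and 72.9 on day 6 and 68.2, 76.4, 69.4 and 75.99 on day 8. On day 13 the values were 57.4, 59.0, 68.9 and 68.9 CPM, and rapamycin-treated mice had 66.3, 66.0, 68.1 and 69.0 CPM. Each of the 20 Cre-positive mice lay below each control, in the direction that the genotypes imply, and part of the transcript remained in this mixture of cells. The log2 fold change of Tsc1 was -0.42 (SE 0.04, adjusted p = 0.000284) on day 4, -0.75 (SE 0.08, adjusted p = 0.000636) on day 13 and -0.64 (SE 0.04, adjusted p = 7.74e-06) under rapamycin, by the quasi-likelihood test of edgeR. Camk2a itself, a marker of the neurons in which the driver is active, was looked up after the other values were seen. It was abundant in every group, with 1849 ± 251 CPM (SD, n = 4) in controls and 1859 ± 459.8 CPM on day 13. The mean was 2376 CPM on day 4, 2116 on day 6, 1785 on day 8 and 1860 in rapamycin mice. Day 4 mice ranged from 2180 to 2590 CPM, above the controls, which ranged from 1562 to 2174.

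Total counts per mouse ranged from 50460565 to 61083014 in controls, 56239855 to 60914278 on day 4, 51363380 to 62429111 on day 6 and 53564370 to 59124484 on day 8. Day 13 was the least even group, with 69971957 counts in mouse A, 126435936 in mouse B, 38423852 in mouse C and 41101425 in mouse D, and rapamycin mice had 28208561 to 54924199. Each marker was well covered: the lowest count in any mouse was 148, for Calb2.

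Levels can be compared between genes only per length, here as TPM, which divides by exon length. Over the 24 mice, mean TPM was highest for Gad1 (108), followed by Gad2 (61.3), Pvalb (59.0), Erbb4 (34.8), Slc32a1 (23.4), Reln (17.2), Calb2 (14.8), Vip (10.3) and Lhx6 (6.37). Gad1 was the most abundant of these transcripts and Lhx6 the least. The order of Gad2 and Pvalb differed between groups, since mean TPM in rapamycin mice was 64.8 for Gad2 and 69.5 for Pvalb, and in controls 64.3 and 64.0. Calb2 had the widest range relative to its mean, from 7.35 to 48.1 TPM.

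**Figure D1:**
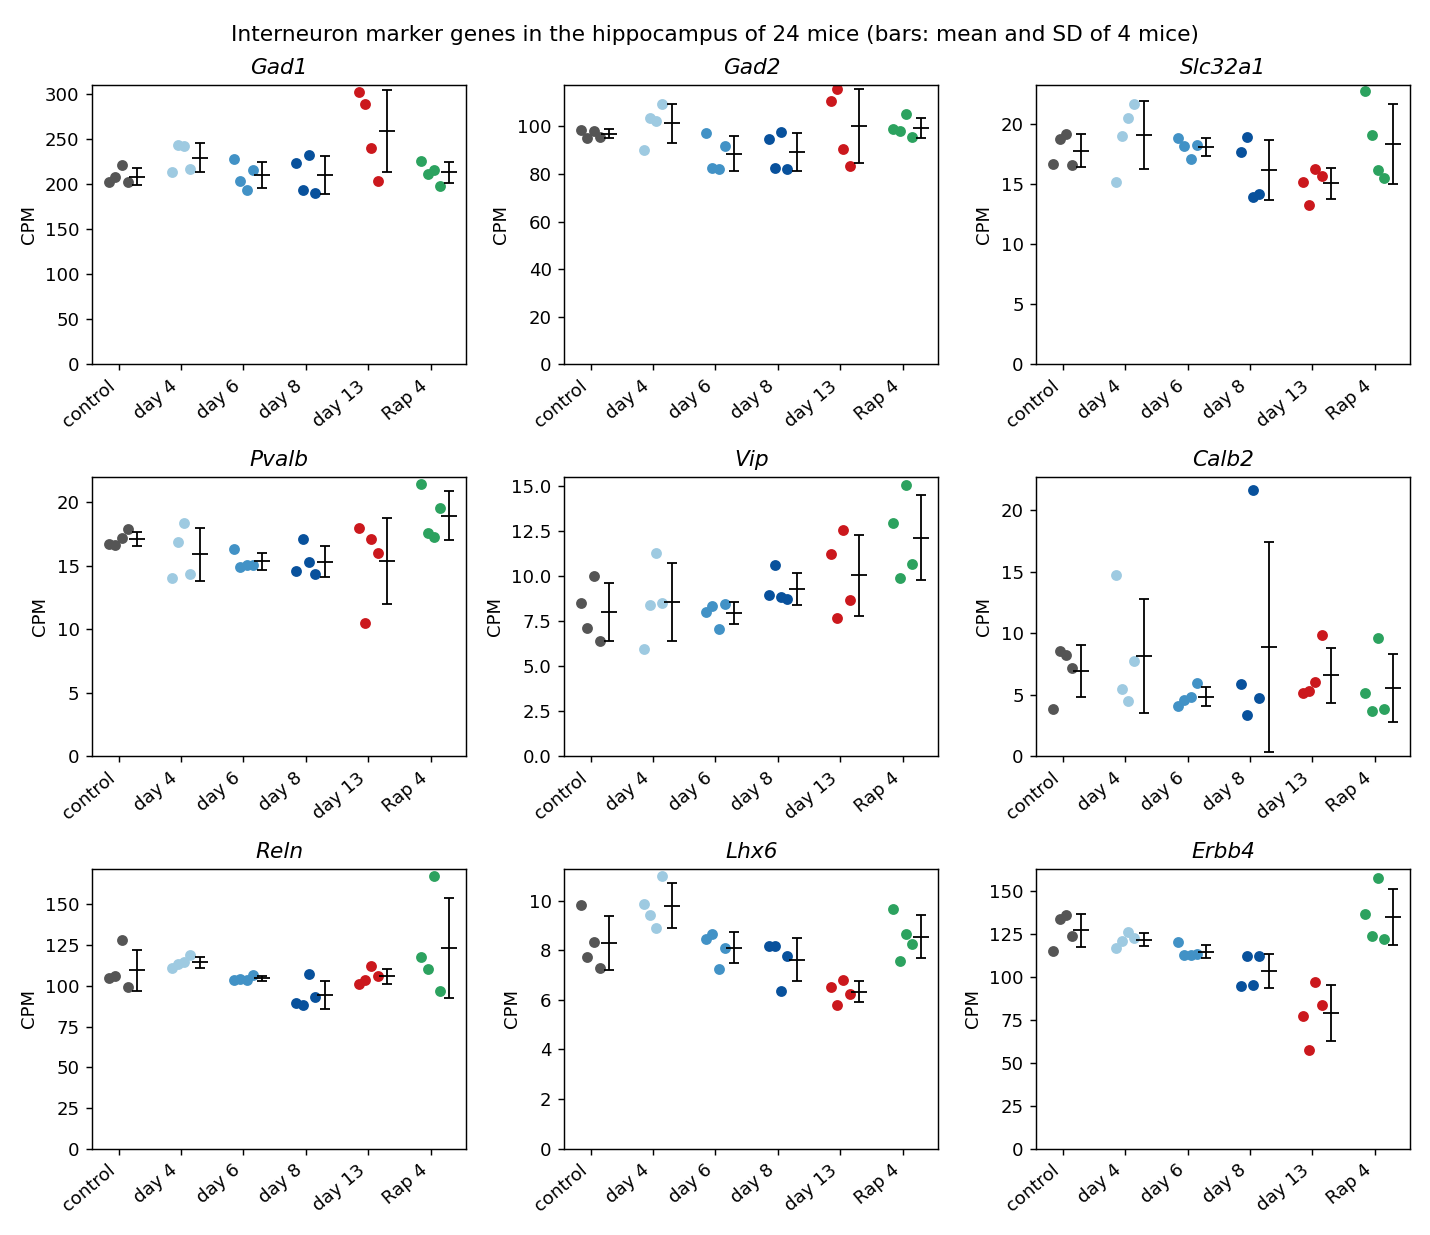
CPM (vertical axis, from 0) of each of the 9 markers in each of the 24 mice, by group (horizontal axis), with points for mice A to D from left to right and a bar for the mean and SD of 4 mice. Erbb4 and Lhx6 are lowest on day 13, and Calb2 has 1 high mouse on day 8, at 21.6 CPM.

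The 9 genes were then compared between groups across all genes tested, where called genes have an adjusted p below 0.05 and a log2 fold change beyond 0.5 in size. On day 4, edgeR called 0 of the 9 markers (0.68% of all genes tested) and DESeq2 called 0. With no fold-change minimum 0 of 9 passed (4.16% of all genes), and at an unadjusted p under 0.05 2 of 9 did (18.4%). The median log2 fold change was 0.09 over the 9 genes and -0.01 over all genes.

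On day 6, before seizure onset, edgeR again called 0 of 9 (1.32% of all genes), DESeq2 called 0, 0 of 9 passed with no fold-change minimum (10.1%), and 4 of 9 had an unadjusted p under 0.05 (24.2%). Erbb4 was nearest, at -0.16 (SE 0.05, adjusted p = 0.0554 by edgeR), with adjusted p from 0.029 to 0.621 over the alternatives. With 1 mouse left out, adjusted p ran from 0.00491 to 0.147 for Erbb4 and from 0.0256 to 0.258 for Gad2. Day 8 gave 0 of 9 called by edgeR (3.99%) and 0 by DESeq2, with 3 of 9 at an unadjusted p under 0.05 (28.9%). The 1 marker that passed on day 8 with no fold-change minimum, among 13.3% of all genes, was Erbb4. The median of the 9 genes was -0.08 on day 6 and -0.14 on day 8, beside -0.02 and -0.03 over all genes.

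On day 13, 1 of the 9 markers was called, Erbb4, against 16.5% of all genes. It was called lower, as were 8.06% of all genes, while none of the 9 was among the 8.4% called higher. With no fold-change minimum 2 of 9 passed, Erbb4 and Lhx6, against 26.9% of all genes, so the share of markers that differed was not above that of the transcriptome. Absolute log2 fold changes had a median of 0.26 over the 9 genes and 0.32 over all genes.

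Between rapamycin-treated mice and controls, edgeR called 0 of 9 (1.41% of all genes), 0 of 9 passed with no fold-change minimum (3.57%), and 1 of 9 had an unadjusted p under 0.05 (18.1%), Vip, which DESeq2 did call. Compared with untreated mice of day 13, 1 of 9 was called in rapamycin mice (21.1% of all genes), Erbb4, on the higher side (9.94%), and none of the 9 was among the 11.2% called lower. With no fold-change minimum 2 of 9 passed (30.8%), again Erbb4 and Lhx6, now higher. The comparisons with controls share the same 4 control mice, and both day 13 comparisons share the untreated mice, so these counts are not independent of each other.

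Between day 8 and day 13, edgeR called 0 of 9 markers and 0% of the 24747 genes tested, with or without the fold-change minimum. At an unadjusted p under 0.05, 2 of 9 markers (Gad1 and Erbb4) and 14.1% of all genes passed. DESeq2 called 0 of 9 markers and 238 of all genes in this comparison. Across all 6 groups, an F test of edgeR found a difference in 4 of 9 markers at an adjusted p under 0.05, against 41.9% of 27110 genes: Erbb4 (adjusted p = 5.53e-05), Lhx6 (0.00133), Gad1 (0.0367) and Vip (0.0397).

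**Figure D2:**
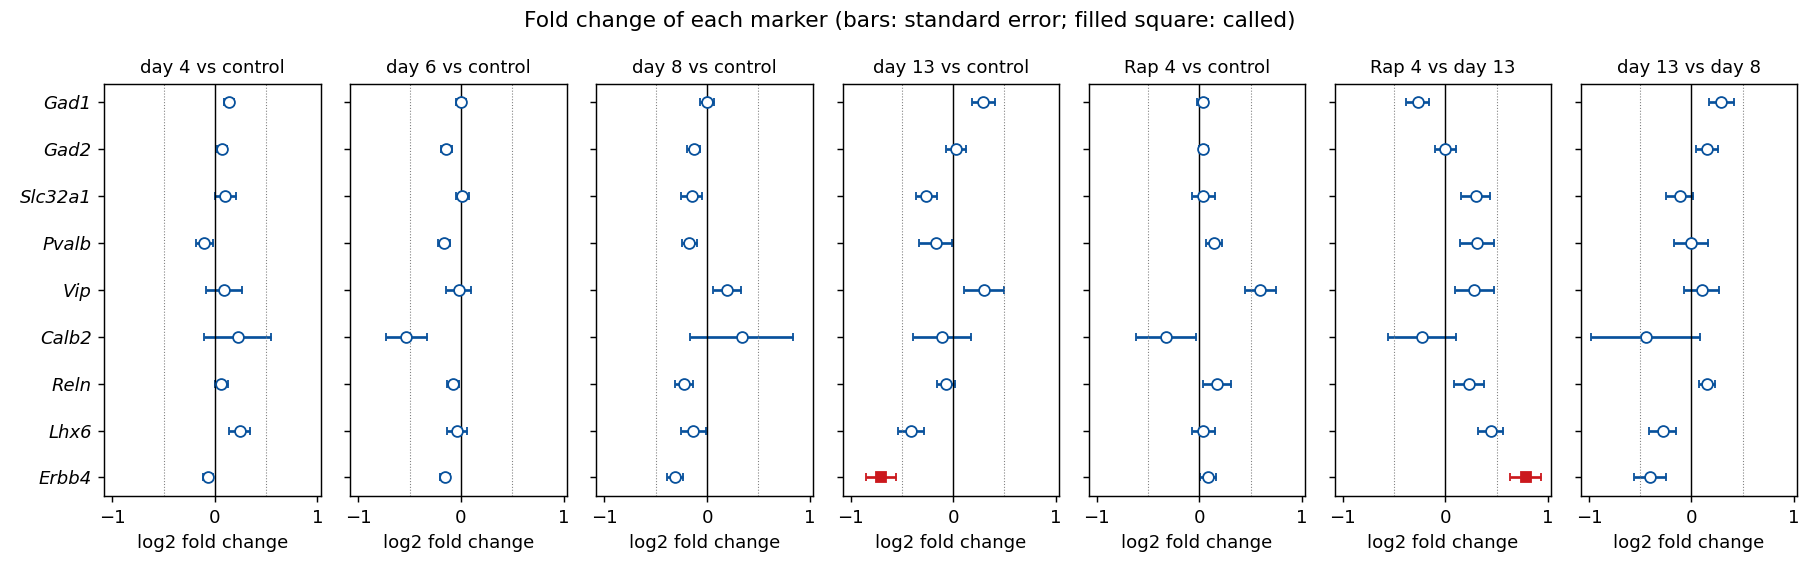
Log2 fold change (horizontal axis) of each marker in the 7 comparisons, with standard errors as bars, filled squares for genes called and dotted lines at an absolute value of 0.5. Erbb4 is the marker called, at -0.71 on day 13 and at 0.78 in rapamycin mice compared with day 13.

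Gad1 encodes GAD67, the decarboxylase of the cell body that makes most of the GABA of the brain. Control mice had 201, 207, 221 and 202 CPM, day 4 mice 213, 242, 242 and 217 and day 6 mice 227, 204, 193 and 215. Day 8 mice had 223, 193, 232 and 189.6 CPM, day 13 mice 302, 289, 239 and 203 and rapamycin mice 226, 211, 216 and 198. Mice A and B of day 13 were the highest of all 24 and mouse D lay within the range of the controls, so the groups overlapped. The log2 fold change on day 13 was 0.29 (SE 0.11, 95% interval 0.07 to 0.51), with an adjusted p of 0.0772, short of the threshold. The adjusted p ranged from 0.00977, in the fit of all 24 mice, to 0.148 over the alternatives, and from 0.00941, without day 13 mouse D, to 0.178 when 1 mouse was left out. The same 2 mice had the largest totals and come from 1 numbering series of the deposited files, and with all mice thinned to the smallest total the fold change was 0.26. Rapamycin mice and day 13 mice overlapped as well, with a log2 fold change of -0.27 (SE 0.11, adjusted p = 0.095). That adjusted p ran from 0.0172 to 0.116 over the alternatives and from 0.0137 to 0.226 with 1 mouse left out, lowest in the same 2 fits.

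Gad2 encodes GAD65, the isoform concentrated at nerve terminals. Control mice had 98.6, 95.0, 98.2 and 95.7 CPM, day 4 mice 90.0, 103, 102 and 109.5 and day 6 mice 97.1, 82.7, 82.1 and 91.9. Day 8 mice had 94.7, 82.7, 97.7 and 82.2 CPM, day 13 mice 110.5, 116, 90.7 and 83.5 and rapamycin mice 98.9, 97.9, 105 and 95.4. On days 6 and 8, 1 and 1 of 4 mice lay within the narrow control range and the others below it, while on day 13 mice A and B lay above it and mice C and D below it. The log2 fold change was 0.03 (SE 0.10, 95% interval -0.16 to 0.21), with an adjusted p of 0.864 on day 13, and -0.14 (SE 0.05, adjusted p = 0.0923) on day 6.

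The ratio of Gad1 to Gad2 within a mouse does not depend on the scaling between mice, and it was examined after the levels had been seen. It was 2.04, 2.18, 2.25 and 2.11 in controls, 2.37, 2.35, 2.37 and 1.98 on day 4 and 2.34, 2.46, 2.35 and 2.34 on day 6. On day 8 it was 2.35, 2.34, 2.37 and 2.31, on day 13 2.73, 2.50, 2.64 and 2.44 and in rapamycin mice 2.28, 2.15, 2.05 and 2.07. Every mouse of days 6, 8 and 13 was above every control, and every rapamycin mouse was below every mouse of day 13. In two-sided exact permutation tests, which have 70 arrangements here, the p was 0.0286 for days 6, 8 and 13 each, the smallest these tests can give, and 0.0477 after adjustment over the 5 comparisons with controls. The ratio was 1.11, 1.09 and 1.20 times that of controls on these days, whereas the exact permutation p was 0.314 on day 4 (1.05 times) and 0.943 under rapamycin (0.997 times). On day 4, 3 mice were above all controls and mouse D was below them. The log2 difference of day 4 ranged from 0.051 to 0.138 when 1 mouse was left out. On day 8, where both groups come from the same 2 numbering series, the log2 difference of the ratio was 0.15 within the first series and 0.10 within the second.

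**Figure D3:**
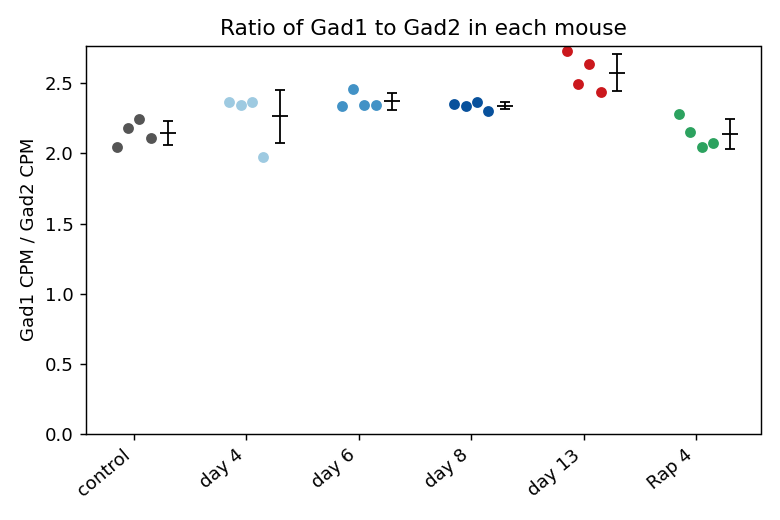
Ratio of Gad1 CPM to Gad2 CPM (vertical axis, from 0) in each mouse, by group (horizontal axis), with the mean and SD of 4 mice. Controls sit between 2.04 and 2.25, and day 13 mice between 2.44 and 2.73.

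Slc32a1 encodes VGAT, the vesicular transporter of GABA and glycine. Controls had 16.6, 18.7, 19.1 and 16.6 CPM, day 8 mice 17.7, 18.8, 13.9 and 14.2, day 13 mice 15.1, 13.2, 16.2 and 15.6 and rapamycin mice 22.7, 19.1, 16.1 and 15.5. All 4 mice of day 13 lay below all controls, by a small margin, and rapamycin mice overlapped both groups. On day 13 the log2 fold change was -0.26 (SE 0.10, 95% interval -0.46 to -0.06), with an adjusted p of 0.0842, which missed the threshold. Values ranged from 15.2 to 21.7 CPM on day 4 and from 17.0 to 18.8 CPM on day 6. Part of Slc32a1, 697 exon bases, is covered by the antisense gene Gm14205, which reached 0.0563 CPM at most.

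Pvalb marks fast-spiking basket and axo-axonic cells. Control mice had 16.7, 16.6, 17.2 and 17.8 CPM, day 6 mice 16.3, 14.9, 15.03 and 15.1, day 13 mice 18.0, 10.5, 17.1 and 16.01 and rapamycin mice 21.4, 17.6, 17.2 and 19.5. Day 6 mice were all below the controls, while on day 13 mice B and D were below all controls, C was within their range and A was above it. The log2 fold change was -0.17 (SE 0.06, adjusted p = 0.0883) on day 6, -0.17 (SE 0.16, adjusted p = 0.452) on day 13 and 0.14 (SE 0.08, adjusted p = 0.341) under rapamycin, and none was called. Values on day 4 ranged from 14.02 to 18.3 CPM and on day 8 from 14.3 to 17.1 CPM.

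Vip marks interneurons that often inhibit other interneurons. Controls had 8.49, 7.14, 10.0 and 6.42 CPM, day 13 mice 11.2, 7.69, 12.6 and 8.70 and rapamycin mice 13.0, 9.89, 15.05 and 10.7. Rapamycin mice had the highest group mean of the 6 groups, at 12.1 ± 2.34 CPM (SD, n = 4), but mouse B lay below control mouse C. The log2 fold change between rapamycin and control mice was 0.59 (SE 0.15, 95% interval 0.29 to 0.89), with an adjusted p of 0.0517 by edgeR, just outside the threshold. DESeq2 called it (0.59, adjusted p = 0.0039), as did edgeR with no filter on low counts (0.59, adjusted p = 0.00865) and with a replicate block (0.60, adjusted p = 0.00413), without control mouse C (0.72, adjusted p = 0.0315) or without rapamycin mouse B (0.68, adjusted p = 0.0478). Over all alternatives, those leaving out 1 mouse included, its adjusted p ranged from 0.0039 to 0.133. Between rapamycin and day 13 mice Vip had a log2 fold change of 0.28 (SE 0.19, adjusted p = 0.281).

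Calb2, calretinin, is present in some interneurons, and in the mouse also in mossy cells of the hilus, in Cajal-Retzius cells and in midline thalamic nuclei. Controls had 3.89, 8.54, 8.21 and 7.19 CPM, day 4 mice 14.7, 5.45, 4.53 and 7.77 and day 6 mice 4.12, 4.56, 4.81 and 5.94. Day 8 mice had 5.84, 3.39, 21.6 and 4.78 CPM, day 13 mice 5.14, 5.27, 6.05 and 9.84 and rapamycin mice 5.14, 3.69, 9.62 and 3.84. Mouse C of day 8 and mouse A of day 4 stood above all others, and the groups overlapped. The log2 fold change on day 8 was 0.34 (SE 0.50, 95% interval -0.64 to 1.32), with an adjusted p of 0.702, and it turned to -0.59 (adjusted p = 0.165) without mouse C. On day 6 it was -0.53 (SE 0.20, adjusted p = 0.11), which passed the threshold with no filter on low counts (-0.53, adjusted p = 0.0274) and without control mouse A (-0.73, adjusted p = 0.00237), the lowest control, with adjusted p up to 0.713 over the alternatives.

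Markers of the thalamus, which borders the hippocampus, were read beside Calb2. The summed CPM of 11 thalamic marker genes was 241, 255, 295 and 502 in controls, 289, 234, 242 and 233 on day 4 and 214, 226, 214 and 229.8 on day 6. It was 186, 226, 496 and 239 on day 8, 173, 124, 204 and 216 on day 13 and 251, 232, 266 and 362 in rapamycin mice. Mouse C of day 8 was thus high in both measures, and so was its Slc17a6, a glutamate transporter gene of thalamic neurons that was singled out after its values were seen, at 63.5 CPM. Control mouse D had as high a thalamic sum with 7.19 CPM of Calb2. The summed CPM of 8 Cajal-Retzius cell markers was highest in the 2 mice with the highest Calb2, at 65.5 in day 8 mouse C and 45.6 in day 4 mouse A, where Zic1, the most abundant gene of that list, had 48.6 and 28.4 CPM. In the other 22 mice that sum ran from 12.4 to 39.9. Most of the sum in these 2 mice was thus Zic1. Trp73, another gene of that list, was not high beside it. It ran from 1.12 to 2.07 CPM on day 8, from 3.32 to 3.98 on day 4 and from 3.20 to 4.50 in controls. Rora was the most abundant gene of the thalamic list in all mice, and Gbx2 and Six3 of that list had 0 counts in some mice. Mice of days 6 and 13 all had lower thalamic sums than all controls. All 9 genes tested were below 0 on days 6 and 13, with medians of -0.47 and -0.57. Of these 9, 1 was called lower on day 6, Prkcd (-1.24, SE 0.30, adjusted p = 0.0177), and 1 on day 8, Ntng1 (-0.71, SE 0.19, adjusted p = 0.0301). Of all genes, 1.32% and 3.99% were called in either direction on these days. On day 13, 2 were called lower (8.06% of all genes called lower), Ntng1 at -1.74 (SE 0.26, adjusted p = 0.00199) and Prkcd at -1.72 (SE 0.38, adjusted p = 0.0111). When 1 mouse was left out the count was 0 to 4 on day 6, 0 to 2 on day 8 and 2 to 3 on day 13. Both were higher in rapamycin mice than on day 13, as Erbb4 was, at 1.68 (SE 0.24, adjusted p = 0.00128) for Ntng1 and 0.90 (SE 0.25, adjusted p = 0.0211) for Prkcd. The part of either source in the levels of the 9 markers was not tested.

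**Figure D4:**
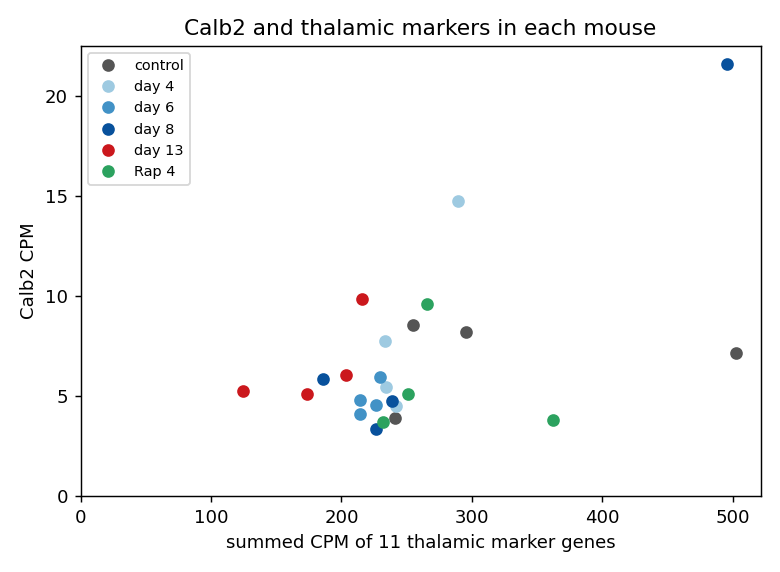
CPM of Calb2 (vertical axis) against the summed CPM of 11 thalamic marker genes (horizontal axis), 1 point per mouse, coloured by group. Mouse C of day 8 lies at the upper right, at 21.6 CPM and a sum of 496.

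Reln encodes reelin, which binds the receptors encoded by Vldlr and Lrp8. Controls had 105, 106, 128 and 99.2 CPM, day 8 mice 89.3, 88.5, 107 and 93.3, day 13 mice 101, 104, 112 and 106 and rapamycin mice 118, 110.4, 168 and 97.0. Day 8 had the lowest mean but overlapped the controls, and 1 rapamycin mouse, C, was far above the other 3. The log2 fold change was -0.23 (SE 0.09, adjusted p = 0.105) on day 8 and 0.17 (SE 0.14, adjusted p = 0.563) under rapamycin, and none was called. Days 4 and 6 ranged from 111 to 119 CPM and from 104 to 107 CPM. Reln shares 246 exon bases with the antisense gene Gm10475, which reached 0.508 CPM at most.

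Lhx6 acts in the migration and identity of Pvalb and Sst interneurons. Controls had 9.82, 7.72, 8.32 and 7.30 CPM, day 4 mice 9.88, 9.42, 8.91 and 11.003 and day 6 mice 8.46, 8.64, 7.25 and 8.08. Day 8 mice had 8.19, 8.18, 6.36 and 7.76 CPM, day 13 mice 6.52, 5.78, 6.79 and 6.24 and rapamycin mice 9.65, 7.58, 8.66 and 8.26. All 4 mice of day 13 lay below all controls and below all rapamycin mice, and the other groups overlapped the controls. On day 13 the log2 fold change was -0.41 (SE 0.13, 95% interval -0.66 to -0.16), with an adjusted p of 0.0392, and in rapamycin mice compared with day 13 it was 0.44 (SE 0.12, 95% interval 0.20 to 0.68), with an adjusted p of 0.0225, both short of the fold-change minimum. Leaving out 1 mouse at a time gave adjusted p from 0.046 to 0.113 for day 13 and from 0.0253 to 0.0701 for the rapamycin comparison, and the other alternatives gave 0.00535 to 0.119 and 0.00234 to 0.0418. In whole tissue, fewer cells of a type and less RNA per cell cannot be told apart.

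Erbb4 encodes the receptor through which neuregulins act on interneurons and their excitatory input. Controls had 115, 134, 136 and 124 CPM, day 4 mice 117, 121, 126.1 and 123 and day 6 mice 120.4, 113, 113 and 113. Day 8 mice had 94.9, 113, 95.6 and 112 CPM, day 13 mice 77.3, 57.8, 97.4 and 83.7 and rapamycin mice 137, 124, 158 and 122. All mice of days 8 and 13 lay below all controls, mouse B of day 13 was the lowest of the 24, and every rapamycin mouse was above every mouse of days 6, 8 and 13. Erbb4 fell on day 13, with a log2 fold change of -0.71 (SE 0.15, 95% interval -0.99 to -0.42), with an adjusted p of 0.00803. It was higher in rapamycin mice than on day 13, at 0.78 (SE 0.15, 95% interval 0.48 to 1.08), with an adjusted p of 0.00503, and did not pass the test between rapamycin mice and controls, at 0.09 (SE 0.08, 95% interval -0.07 to 0.24), with an adjusted p of 0.626.

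On day 8, the time of seizure onset, the log2 fold change of Erbb4 was -0.31 (SE 0.08, 95% interval -0.46 to -0.16), with an adjusted p of 0.0251, under the fold-change minimum, and it was -0.27 and -0.33 within the 2 numbering series that both groups share. The day 8 adjusted p ranged from 0.0191 to 0.0803 when 1 mouse was left out, and was above 0.05 without control mouse B, C or D or day 8 mouse A. Over the other alternatives it ranged from 0.00521 to 0.0747, the highest in the fit of all 24 mice. From day 8 to day 13 the log2 fold change was -0.40 (SE 0.15, adjusted p = 0.32), which did not pass. Its adjusted p ran from 0.022 to 0.505 over the alternatives and from 0.201 to 0.6 with 1 mouse left out. Leaving out 1 mouse at a time, the day 13 value ranged from -0.80 to -0.57 with adjusted p from 0.00382 to 0.0293, and Erbb4 remained called each time. Without mouse B of day 13, which had the most counts and the lowest thalamic sum, the value was -0.57.

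Ordered by group means, Erbb4 ran from day 13 (79.0 CPM) through day 8 (104), day 6 (115), day 4 (122) and controls (127) to rapamycin mice (135). In that order the ranges of days 8 and 6 did not overlap, by a narrow gap from 112.5 to 112.8 CPM, and all other neighbours overlapped. It was 1 of 45 neighbouring pairs, 5 for each of the 9 markers, and since the groups were ordered by the same means, no test is read from it. Lhx6 ran from day 13 (6.33 CPM) through day 8, day 6, controls and rapamycin mice to day 4 (9.80), and Slc32a1 from day 13 (15.04) through day 8, controls, day 6 and rapamycin mice to day 4 (19.1). Day 13 and day 8 were the 2 lowest groups for these 3 genes. For Gad1 day 13 was the highest (258) and controls the lowest (208), for Gad2 day 4 was the highest (101) and day 6 the lowest (88.4), and for Vip rapamycin mice were the highest (12.1) and day 6 the lowest (7.97). Pvalb and Reln were lowest on day 8 (15.3 and 94.5 CPM) and highest in rapamycin mice (18.9 and 123), and Calb2 was lowest on day 6 (4.86) and highest on day 8 (8.90).

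Erbb4 and Lhx6 were the 2 markers with the lowest log2 fold changes on day 13, and the 250 bases before their starts are shown for that reason. Both were taken from RefSeq on GRCm38.p6, which had windows for 8 of the 9 genes, at chr1:69108060-69108309 for Erbb4 and chr2:36105409-36105658 for Lhx6, both on the minus strand and outside annotated exons. Capitals mark a match to any of 4 motifs searched on both strands, the AP-1 motif TGANTCA, the cyclic AMP response motif TGACGTCA, the E-box motif CACGTG and the TATA box motif TATAAA.
Erbb4: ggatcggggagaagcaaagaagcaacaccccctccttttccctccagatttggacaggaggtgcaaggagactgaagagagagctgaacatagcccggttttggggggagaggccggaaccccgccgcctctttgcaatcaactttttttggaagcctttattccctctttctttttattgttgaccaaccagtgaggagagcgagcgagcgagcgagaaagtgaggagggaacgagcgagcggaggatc
Lhx6: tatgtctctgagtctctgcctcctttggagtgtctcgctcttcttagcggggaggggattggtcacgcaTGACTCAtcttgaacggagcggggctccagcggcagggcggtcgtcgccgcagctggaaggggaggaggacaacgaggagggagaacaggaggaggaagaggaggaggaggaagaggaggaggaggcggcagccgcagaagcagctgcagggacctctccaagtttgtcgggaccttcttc
The window of Lhx6 held 1 match to TGANTCA, a motif found in 6.75% of the 32851 promoter windows of this length, and that of Erbb4 held none of the 4. TGACGTCA was found in 1.55% of all windows, CACGTG in 6.02% and TATAAA in 12.4%. Among the 11 windows of the 8 genes, CACGTG was found for Reln and TATAAA for Gad1 and Vip. GC content was 54.0% for Erbb4 and 61.6% for Lhx6, with a median of 52.4% over all windows.

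Over the 24 mice and among 18259 genes with a mean of at least 1 CPM, the genes outside the list whose log2 CPM was most like that of Erbb4 were Gprasp2 (Pearson r = 0.969), Peg3 (0.956) and Gprasp1 (0.949). Those nearest to Gad1 were Ets2 (0.878), Pde3a (0.870) and Mon2 (0.868), and those nearest to Gad2 were Slc24a4 (0.852), Ppl (0.810) and Pxdn (0.782). Genes near to Slc32a1 included AC126937.2 (0.807) and Btbd2 (0.804). Pvalb was nearest to Scn4b (0.840), which encodes a sodium channel beta subunit, Camk2n1 (0.780) and Rnf207 (0.768), and Vip to Rnf227 (0.804), Cacnb4 (0.726) and Fnbp1l (0.711). For Calb2 the nearest were Ano1 (0.903), Clec18a (0.877) and Syt9 (0.844), for Reln Gm43149 (0.756), Col6a2 (0.709) and Gm47370 (0.703), and for Lhx6 Gm44914 (0.868), Gm47198 (0.851) and Gm26953 (0.848). The 24 mice differ in group, depth and dissection, so these values are no test of a link between genes.

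Other genes of the same cells and pathways were read from 20 lists. Among 21 tested interneuron transcription factors, 3 were called on day 13 (16.5% of all genes), all lower, with a count of 1 to 5 when 1 mouse was left out: Dlx6os1, a noncoding RNA of the Dlx5 and Dlx6 locus, at -0.67 (SE 0.08, adjusted p = 0.000942), Nr2f1 at -0.54 (SE 0.12, adjusted p = 0.0107) and Zeb2 at -0.51 (SE 0.13, adjusted p = 0.0176). The median was -0.41, beside -0.04 over all genes. Zeb2 had a mean of 122 TPM in controls, beside 106 for Gad1 and 6.72 for Lhx6. The cells in which these 3 transcription factor genes changed were not tested. Dlx6os1 was 31.3, 28.3, 30.5 and 29.7 CPM in controls, 18.7, 18.3, 21.1 and 18.0 on day 13 and 35.5, 30.7, 33.5 and 31.3 in rapamycin mice. Day 13 thus lay below both other groups without overlap, and Dlx6os1 was 0.79 (SE 0.09, adjusted p = 0.000563) in rapamycin mice compared with day 13. In that comparison 3 of the 21 were called higher (9.94% of all genes), Dlx6os1, Etv1 and Tox. The median was 0.37 (0.02 over all genes). DESeq2 called 5 of the list, and edgeR called 2 to 6 when 1 mouse was left out.

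Of 32 other interneuron class markers, 5 rose (8.4% of all genes) and 9 fell (8.06%) on day 13, with 10 to 16 called when 1 mouse was left out and a median of -0.25. The largest rises were those of the neuropeptide genes Npy, at 2.38 (SE 0.43, adjusted p = 0.00433), and Penk, at 2.13 (SE 0.34, adjusted p = 0.00251), and the largest falls those of Calb1, calbindin, at -1.19 (SE 0.23, adjusted p = 0.00557), and Adarb2, at -1.05 (SE 0.14, adjusted p = 0.00145). Npy was 12.1, 10.8, 11.5 and 9.70 CPM in controls and 81.7, 101, 26.0 and 25.3 on day 13, and Calb1 was 83.2, 82.4, 74.2 and 82.6 and 24.01, 25.7, 49.0 and 45.1. Mice A and B had the highest Npy and the lowest Calb1 of the group, and all 4 day 13 mice were apart from all controls in both genes. Calb1 is also a gene of granule and pyramidal cells and stands in a second list for that reason, and Npy and Penk can be made by granule cells. The cells in which these genes changed were not tested. In rapamycin mice compared with day 13, 9 were higher (9.94% of all genes) and 4 lower (11.2%), with a median of 0.28, and the leading genes were Penk (-2.75, SE 0.35, adjusted p = 0.000751), Npy (-2.59, SE 0.43, adjusted p = 0.00231), Calb1 (1.43, SE 0.22, adjusted p = 0.00181) and Adarb2 (1.07, SE 0.13, adjusted p = 0.000694). The summed CPM of the list overlapped between the groups, with 1413, 1294, 1355 and 1364 in controls and 1306, 1376, 1346 and 1184 on day 13, and Cnr1 was its most abundant gene in most mice.

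On day 8, 1 of 32 was called (3.99% of all genes), with 13 at an unadjusted p under 0.05 (28.9% of all genes). The count called was 0 to 5 when 1 mouse was left out. The gene called was Nos1, which encodes neuronal nitric oxide synthase, at -0.57 (SE 0.14, adjusted p = 0.025). It had 81.3, 84.3, 54.0 and 95.0 CPM beside 129.7, 115, 118 and 101 in controls, and the 2 groups did not overlap. Npy on day 8 was 32.9, 9.47, 62.7 and 7.30 CPM and Penk 36.9, 10.8, 84.7 and 11.2, high in mice A and C, and neither was called. On day 6, 1 of 32 was called (1.32% of all genes), Sncg, at -0.75 (SE 0.21, adjusted p = 0.0367). Rapamycin mice differed from controls in 1 of 32 (1.41% of all genes), Penk, at -0.60 (SE 0.14, adjusted p = 0.035). In both comparisons the count was 0 in 6 of the 8 fits that left out 1 mouse, and 1 in the other 2.

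GABA handling outside the 9 genes was read from 13 genes, with a median of -0.15 on day 13. Slc38a2, a glutamine transporter, rose on day 8 (0.54, SE 0.11, adjusted p = 0.0103) and on day 13 (0.56, SE 0.16, adjusted p = 0.0301). Its groups overlapped on day 13 and not on day 8. With all mice, edgeR called 1 of the 13 on day 8, higher (3.99% of all genes called). On day 13 it called 1 higher (8.4% of all genes) and 1 lower (8.06%). When 1 mouse was left out, edgeR called 0 to 1 of the 13 on day 8 and 0 to 3 on day 13, with 0 in 6 of the 8 fits of day 13. In rapamycin mice compared with day 13 the median was -0.08, with 1 gene called higher (9.94% of all genes) and 1 lower (11.2%). Leaving out 1 mouse gave 1 to 4 called. The lower one was Slc38a1, also a glutamine transporter, at -0.54 (SE 0.08, adjusted p = 0.00146).

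Of 15 Erbb4 ligands and partners, edgeR called 3 on day 13 (16.5% of all genes) and DESeq2 2, with 1 to 4 when 1 mouse was left out and a median of 0.04. Hbegf, a ligand of Erbb4 and of the EGF receptor, rose (2.60, SE 0.75, adjusted p = 0.0305), and Erbb3 (-0.82, SE 0.18, adjusted p = 0.00938) and the neuregulin gene Nrg2 (-0.51, SE 0.14, adjusted p = 0.028) fell. Hbegf was 8.62, 5.87, 7.36 and 7.68 CPM in controls and 90.3, 76.8, 8.75 and 6.87 on day 13. Its rise rested on mice A and B, the mice with the highest Gad1, and mouse D lay within the control range. Erbb3 was also lower than in controls on day 6 (-0.54, SE 0.11, adjusted p = 0.00888), on day 8 (-0.66, SE 0.13, adjusted p = 0.0084) and under rapamycin (-0.64, SE 0.14, adjusted p = 0.0234), where Erbb4 was not called. The groups overlapped on day 6 and under rapamycin and did not on day 8. Leaving out 1 mouse, edgeR called 0 to 1 of the list on day 6, 1 on day 8 and 0 to 1 under rapamycin. All 12 oligodendrocyte markers were below 0 in these 3 comparisons, with medians of -0.38, -0.44 and -0.50, and the part of these cells in the level of Erbb3 was not tested.

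Of 16 reelin pathway genes, 3 rose on day 13 (8.4% of all genes called higher, 16.5% called in either direction), Plat (1.19, SE 0.23, adjusted p = 0.00635), Lrp8 (0.53, SE 0.13, adjusted p = 0.0177) and Vldlr (0.52, SE 0.12, adjusted p = 0.0151), with a median of 0.26. Plat encodes a protease, and Lrp8 and Vldlr are the receptors named above. In rapamycin mice 5 of 16 were called lower than on day 13 (11.2% of all genes), with a median of -0.29. Of 14 genes of the perineuronal net, the matrix around Pvalb cells, 4 rose on day 13 (8.4% of all genes), with 3 to 8 called when 1 mouse was left out and a median of 0.28. They were Has2 (3.41, SE 0.89, adjusted p = 0.021), Hapln4 (1.23, SE 0.08, adjusted p = 8.9e-05), Acan (1.18, SE 0.14, adjusted p = 0.000869) and Ncan (1.00, SE 0.12, adjusted p = 0.00101). The mice of day 13 overlapped the controls in Has2, with 5.28 ± 5.39 CPM (SD, n = 4) on day 13. Hapln4, which links these matrix proteins, was 54.0, 44.4, 47.8 and 44.7 CPM in controls, 58.6, 63.0, 73.4 and 61.0 on day 6, 103, 97.4, 79.1 and 72.3 on day 8, 118, 109, 111 and 115 on day 13 and 54.9, 60.2, 46.5 and 49.2 in rapamycin mice. It was above all controls in all mice of days 6, 8 and 13. In rapamycin mice 5 of the 14 genes were called lower than on day 13 (11.2% of all genes, median -0.18).

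Of 13 scaffold and release genes of inhibitory synapses, 4 rose (8.4% of all genes) and 1 fell (8.06%) on day 13, with a median of 0.15. Igsf9b, an adhesion molecule of inhibitory synapses on interneurons, had 0.97 (SE 0.20, adjusted p = 0.00787) and Mdga1, which limits neuroligin binding, had -0.94 (SE 0.30, adjusted p = 0.043), and both had the opposite sign in rapamycin mice compared with day 13, at -1.10 (SE 0.19, adjusted p = 0.00282) and 0.87 (SE 0.30, adjusted p = 0.0494).

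**Figure D5:**
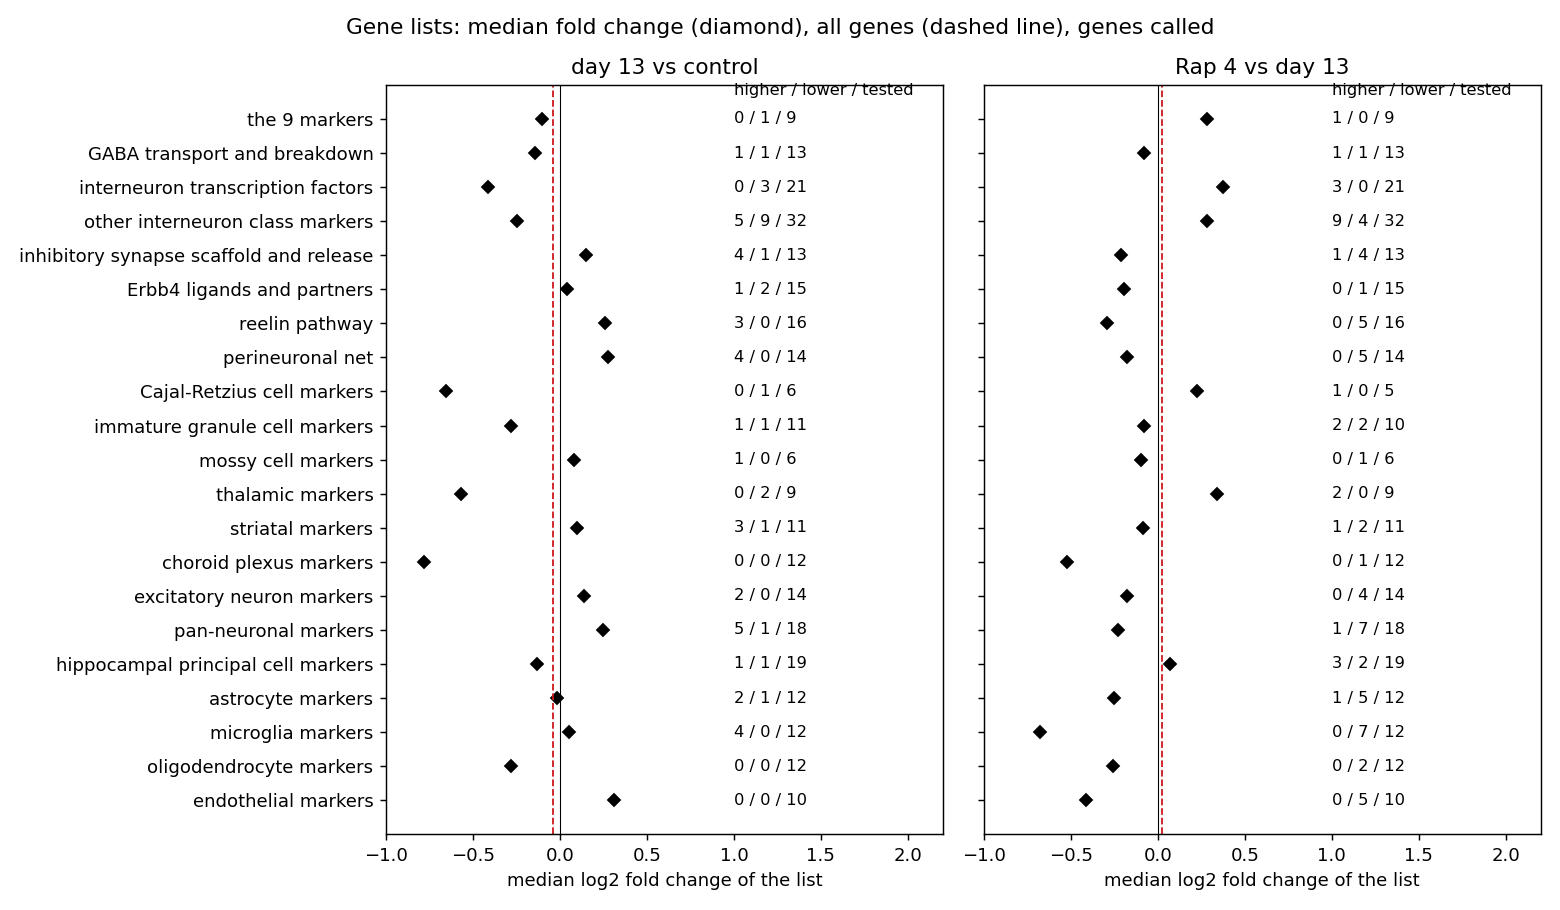
Median log2 fold change (diamonds, horizontal axis) of the 9 markers and of 20 other gene lists on day 13 compared with controls (left) and in rapamycin mice compared with day 13 (right), with the median over all genes as a dashed line and the genes called higher, called lower and tested at the right of each panel. Interneuron transcription factors have a median of -0.41 on the left and 0.37 on the right.

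Markers of other cells bear on how the 9 genes read in whole tissue. Among Cajal-Retzius cell markers, which share Reln and Calb2 with interneurons, Trp73 fell on day 8 (-1.15, SE 0.19, adjusted p = 0.004) and day 13 (-1.20, SE 0.26, adjusted p = 0.0097) and was higher in rapamycin mice than on day 13 (1.05, SE 0.25, adjusted p = 0.0109). It was 3.63, 4.50, 3.21 and 3.20 CPM in controls, 1.63, 1.12, 1.80 and 2.07 on day 8, 1.37, 1.10, 1.53 and 2.51 on day 13 and 3.44, 3.55, 3.06 and 3.23 in rapamycin mice. All mice of days 8 and 13 were below all mice of both other groups, and Trp73 was the 1 gene called of 6 tested on each of these days (3.99% and 16.5% of all genes). On day 8, 5 of the 6 were below 0, with a median of -0.28, and 1 to 2 were called when 1 mouse was left out. On day 13 all 6 were below 0, with a median of -0.66, 4 had an unadjusted p under 0.05, and 1 to 4 were called when 1 mouse was left out. The share of all genes at that unadjusted p is not given here for day 13. The part of these cells in the level of Reln was not tested. Mossy cell markers had 1 of 6 called on day 13 (16.5% of all genes), Ociad2, higher (1.05, SE 0.12, adjusted p = 0.000646). On day 8, 1 of 6 was called (3.99%), Csf2rb2, lower (-0.94, SE 0.20, adjusted p = 0.0127). Leaving out 1 mouse gave 1 to 2 called on each of these days.

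Excitatory neuron markers had 2 of 14 called on day 13 (16.5% of all genes), Neurod2 (0.90, SE 0.07, adjusted p = 0.000158) and Slc17a7 (0.72, SE 0.07, adjusted p = 0.000508). Both were higher (8.4% of all genes), with a median of 0.14. Pan-neuronal markers had 5 of 18 called higher (8.4% of all genes) and 1 lower (8.06%), with a median of 0.24, led by Nefh (1.12, SE 0.18, adjusted p = 0.00297) and Tubb3 (1.00, SE 0.17, adjusted p = 0.00353). Hippocampal principal cell markers, of which Zbtb20 was the most abundant in all mice, had 1 of 19 called higher (8.4% of all genes), Rgs14, and 1 lower (8.06%), Calb1 (median -0.13). Immature granule cell markers had 1 of 11 higher (8.4%), Sox11, and 1 lower (8.06%), Insm1 (median -0.28). Leaving out 1 mouse gave 2 to 5 principal cell and 2 to 4 immature granule cell markers called. The last 2 lists had medians below that of all genes and the first 2 above it.

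Astrocyte markers had 2 of 12 called higher on day 13 (8.4% of all genes), Vim (2.29, SE 0.60, adjusted p = 0.0205) and Gfap (1.91, SE 0.35, adjusted p = 0.00466). They had 1 lower (8.06%), Gja1 (median -0.02). Microglia markers had 4 of 12 higher (8.4%), led by C1qb (1.05, SE 0.24, adjusted p = 0.0131), with a median of 0.05. Striatal markers had 3 of 11 called higher (8.4% of all genes), led by Drd1 (1.58, SE 0.16, adjusted p = 0.000494), and 1 lower (8.06%), with a median of 0.10. The summed CPM of the striatal list overlapped between the groups, at 264 to 362 on day 13 and 265 to 291 in controls. EdgeR called 0 of 12 oligodendrocyte, 0 of 10 endothelial and 0 of 12 choroid plexus markers on day 13, with 1, 5 and 0 at an unadjusted p under 0.05 and 0, 1 and 0 called by DESeq2. Leaving out 1 mouse gave 0 to 5 oligodendrocyte, 1 to 3 astrocyte and 2 to 4 microglia markers called on day 13. On day 8, 4 of 12 oligodendrocyte markers were called lower (3.99% of all genes called, median -0.44), with 0 to 9 when 1 mouse was left out. Between rapamycin mice and controls 5 of 12 were (1.41% of all genes called, median -0.50), with 3 to 9 when 1 mouse was left out. In that comparison 3 of 12 microglia, 3 of 12 astrocyte and 2 of 10 endothelial markers were also called lower. All 12 microglia markers were below 0 there (median -0.44), with 1 to 5 called when 1 mouse was left out. Between rapamycin and day 13 mice, 7 of 12 microglia, 5 of 10 endothelial and 2 of 12 oligodendrocyte markers were called lower (11.2% of all genes). The oligodendrocyte count was 0 to 3 when 1 mouse was left out. So were 5 of 12 astrocyte, 7 of 18 pan-neuronal and 4 of 14 excitatory neuron markers called lower, with 1, 1 and 0 called higher (9.94%). The day 13 medians of oligodendrocyte, endothelial and choroid plexus markers were -0.28, 0.31 and -0.78. The summed CPM of the choroid plexus markers ran from 173 to 2949 over the 24 mice, with Ttr or Enpp2 as the most abundant gene. The part of each of these cells in the level of the 9 markers was not tested.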

How the data were processed

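Total RNA of hippocampus was sequenced as paired 76-nucleotide reads, 1 library per mouse. The deposited values are counts, which the authors made with cutadapt 1.16.5, STAR 2.7.2b on GRCm38 and featureCounts 1.6.4 with GENCODE M24. The strand setting of the counting was not stated. Gene names, lengths and positions came from GENCODE M21. Each comparison of 2 groups of 4 mice was fitted across all genes with edgeR 4.0.16 (filterByExpr with a minimum count of 10, TMM, quasi-likelihood test), in R 4.3.3. P-values were adjusted by Benjamini-Hochberg over all genes tested, and a gene is termed called if the adjusted p is below 0.05 and the log2 fold change is beyond 0.5 in size. Exact permutation tests were two-sided. Alternatives were DESeq2 1.42.0, a single fit of all 24 mice, DESeq2 size factors, no filter, no fold-change minimum, a replicate block, Xist level as covariate, the numbering series as block, and leaving out each mouse. Genes named are the 9 markers, Tsc1, the 3 genes nearest to each marker, and from each other list up to 4 called genes per comparison with the largest absolute log2 fold change and a mean of at least 1 CPM, and the most abundant gene. Some genes that this rule names are not reported here. Members and lists were chosen with earlier results of these data known. The numbering series is read from the names of the deposited files: controls and day 8 share 2 series and every other group comes from other series, so group and series cannot be told apart there. The sex of each mouse is not labelled. Between 2 mice of the same group, counts differed by more than counting error, with a chi-square per degree of freedom of 5.98 to 135.96.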

Additional observations from a re-analysis of the deposited data

Results flagged for a closer look

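In 60 groups of 4 mice, the highest or lowest value was checked for its gap to the nearest of the others, as a share of the range, against the critical value of Dixon. In 7 groups it was larger, and chance gives about 1 in 20 groups. Pvalb in day 6 mouse A was 16.34 CPM, with the other 3 mice between 14.88 and 15.06. Vip in day 8 mouse B was 10.6 CPM, with the others between 8.746 and 8.933. Calb2 in day 8 mouse C was 21.61 CPM, with the others between 3.388 and 5.843. The same mouse had a high sum of thalamic markers, whose part in the value was not tested.

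Reln in day 6 mouse D was 106.8 CPM, with the others between 103.6 and 104.1. Erbb4 in day 6 mouse A was 120.4 CPM, with the others between 112.8 and 113.5. The ratio of Gad1 to Gad2 was 1.978 in day 4 mouse D, with the others between 2.345 and 2.369. It was 2.462 in day 6 mouse B, with the others between 2.339 and 2.348. All 4 mice of day 6 lay above the controls in this ratio, mouse B included.

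Erbb4 differed between the untreated and the rapamycin-treated Tsc1-Cre+ mice of day 13, by 0.782 on the log2 scale (adjusted p = 0.00503 by edgeR), and was higher in 4 of 4 treated mice than in any untreated mouse. These 2 groups come from different numbering series, so treatment and series cannot be told apart.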

How the results depend on the processing

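Of 918 values of 63 log2 fold changes under alternatives, 862 kept their direction and their side of the threshold, 7 now passed it and 49 changed sign. The main values that changed sign were at most 0.448 in size. Erbb4 on day 13 and between rapamycin and day 13 mice was called under each alternative run. Of 2180 counts over the other lists, 1867 stayed within 1.5 times and 313 did not.

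With no fold-change minimum, the markers passing numbered 1 on day 8, 2 on day 13 and 2 between rapamycin and day 13 mice. With no filter on low counts 1 was called on day 6 (Calb2). Between rapamycin mice and controls 1 was called (Vip) by DESeq2, with no filter and with the replicate block. Leaving out 1 mouse at a time gave 0 to 1 on day 6, 0 to 1 between rapamycin mice and controls, and 2 to 5 in the test across the 6 groups. The cause was not tested.

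Gad1 on day 8 had 0.005 by DESeq2, 0.010 in a fit of all 24 mice and 0.003 with DESeq2 size factors. Gad2 between rapamycin and day 13 mice had -0.018, -0.011 and -0.008 in the same order. With Xist level as covariate, Gad2 on day 13 had -0.052, Calb2 on day 13 0.157 and Pvalb between day 13 and day 8 0.048. Pvalb had 0.001 there in the fit of all 24 mice. Gad2 on day 13 had -0.020 with counts thinned to the smallest total, an alternative added after the data were seen.

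Leaving out 1 mouse at a time, the log2 fold changes that changed sign ranged as follows. On day 4 they were Vip -0.071 to 0.229 and Calb2 -0.237 to 0.422. On day 6 they were Gad1 -0.037 to 0.042, Slc32a1 -0.018 to 0.051, Vip -0.112 to 0.107, Reln -0.122 to 0.005 and Lhx6 -0.097 to 0.048. On day 8 they were Gad1 -0.056 to 0.042 and Calb2 -0.591 to 0.613. On day 13 they were Gad2 -0.037 to 0.100, Calb2 -0.369 to 0.008 and Reln -0.116 to 0.010. Between rapamycin mice and controls they were Slc32a1 -0.073 to 0.105, Reln -0.017 to 0.262 and Lhx6 -0.022 to 0.120. Between rapamycin and day 13 mice they were Gad2 -0.076 to 0.064 and Calb2 -0.624 to 0.034. Between day 13 and day 8 they were Pvalb -0.093 to 0.152, Vip -0.024 to 0.221 and Calb2 -0.717 to 0.478. The log2 difference of the Gad1 to Gad2 ratio between rapamycin mice and controls ranged from -0.037 to 0.018.

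Correlations between mice with the same letter were as low as -0.457, in day 13 and day 8 mice B. Between day 13 mice and controls they were 0.147, -0.023, 0.179 and 0.180 for A to D, with a mean of -0.041 for other letters. No comparison had all 4 letters above 0.1, and the mice were not treated as pairs. Thinning was the only alternative to address the uneven depth of day 13.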
